A study of Mus musculus with 12 samples.

Results

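The comparison described here set glomeruli of 6 mice lacking Dach1 in podocytes against glomeruli of 6 control mice, over both arms of the study at once. All 12 of the 12 libraries of the series entered it. Every library took part by its labelled genotype, and the arm (baseline or diabetic) was a blocking term, so that each knockout was in effect set against controls of its own arm. The 4 groups, with 3 different mice in each, were baseline knockouts, baseline controls, STZ knockouts and STZ controls. All mice were of C57BL/6 background. Baseline mice were 10 weeks old and untreated, and their genotype was labelled podocyte-specific DACH1 KO or control. The diabetic mice of both genotypes had received streptozotocin (STZ), a toxin of the insulin-producing beta cells, by intraperitoneal injection of 50 µg per g per day on 5 days, and glomerular RNA was taken 10 days later. The age of the STZ mice and the promoter that drove recombination in podocytes were not stated in the labels read for this comparison. The titles of the STZ controls carry the tag hetN, which the labels do not explain. The series title names DACH1-regulated glomerular genes, untreated and in experimental diabetes, as its subject.

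The product of Dach1, dachshund-1, binds chromatin and in many tissues works with EYA proteins and their homeodomain partners in organ development, often as a repressor. Podocytes are the epithelial cells that wrap the glomerular capillaries. Their foot processes are joined by the slit diaphragm, rest on a basement membrane of type IV collagen and laminin, and depend on an actin skeleton, and podocytes supply VEGF to the neighbouring endothelium. The samples were whole glomeruli, which also hold endothelial, mesangial and parietal cells, so for any podocyte gene fewer podocytes and less RNA per podocyte cannot be told apart.

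Totals ran from 66134170 to 78631380 counts per STZ library and from 22636456 to 24925846 per baseline library, and 13475 genes were listed in both arms and tested. A further 2818 genes listed in the STZ tables alone and 5 listed at baseline alone were not tested. By Xist and Ddx3y, 2 mice in each baseline group were female, as was 1 of the STZ knockouts, and the other mice were male. Podocyte markers were abundant throughout, with a mean of 8.03 to 8.88 log2 CPM (counts scaled to library size) over the 32 measured markers in single libraries.

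Dach1 was lower in every knockout library than in any of the 6 control libraries. The gene spans chromosome 14 from 97786846 to 98169765 in GRCm38.p6 by RefSeq. It stood at 47.2, 56.7 and 59.3 CPM in the baseline knockouts, against 162, 106 and 188 CPM in the baseline controls. After STZ it stood at 55.8, 65.9 and 67.01 CPM in knockouts, against 145, 175 and 183 CPM in controls. The 2 genotypes did not overlap, and the lowest control was baseline control 2. Knockouts held 0.367 of the control level, which is -1.45 on the log2 scale (SE 0.13, adjusted p = 9.11e-05, edgeR's quasi-likelihood test with Benjamini-Hochberg adjustment). Fitted alone, the STZ arm gave -1.41 with an adjusted p of 0.00869, and the baseline arm gave -1.48 with an adjusted p of 0.111, which missed the threshold of 0.05.

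**Figure D1:**
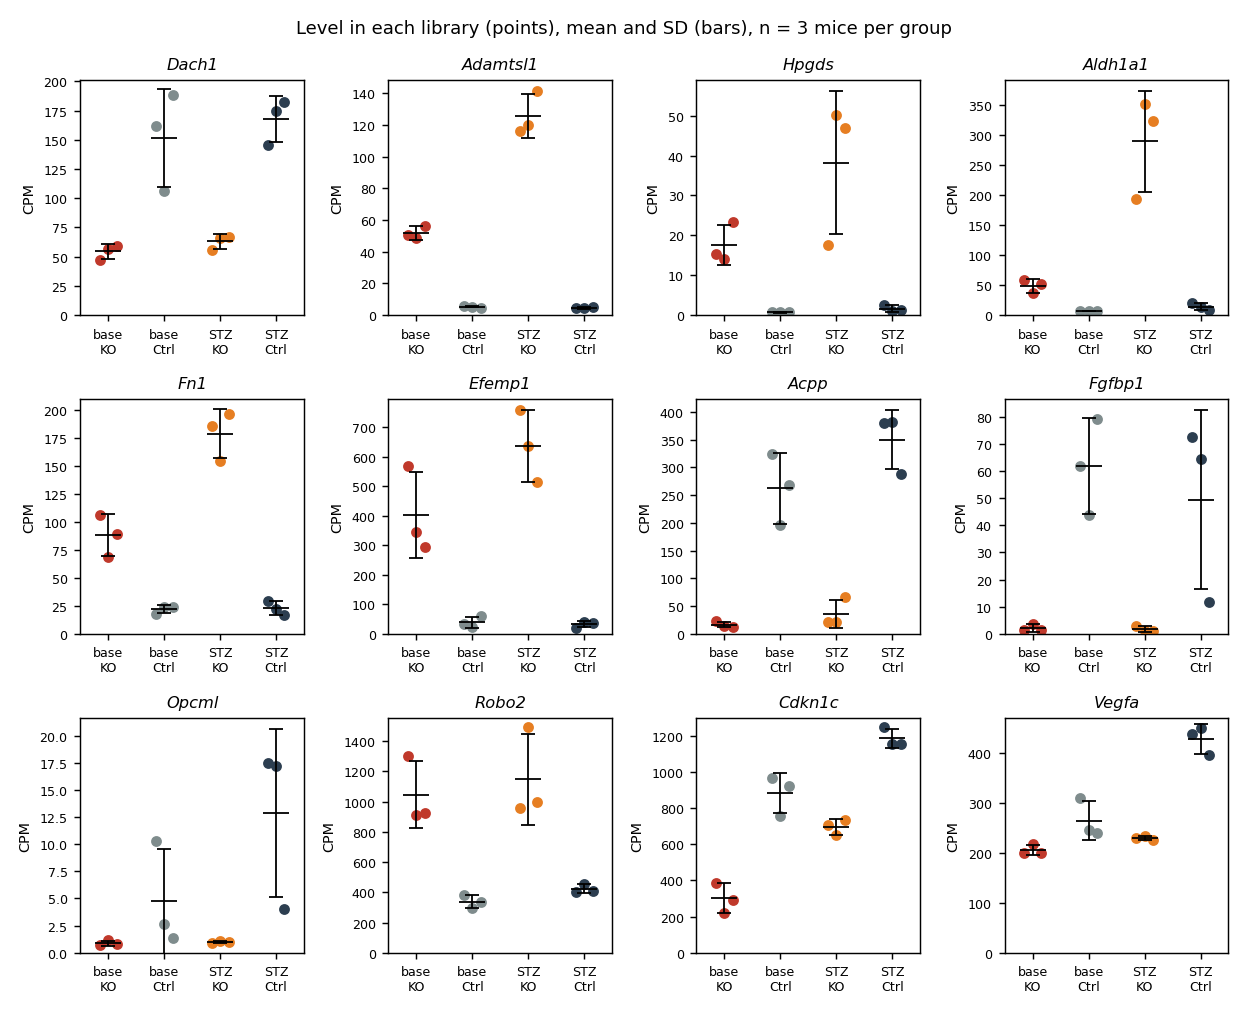
Level of 12 genes in CPM (vertical axis, linear, scaled per gene) in each library, grouped from left to right as baseline knockouts (base KO), baseline controls (base Ctrl), STZ knockouts and STZ controls. Points are mice and bars give the mean and SD of 3 mice, with the SD bar of Opcml in baseline controls running below 0. In each panel both sets of knockouts lie on the same side of the controls of their arm, above them for Adamtsl1, Hpgds, Aldh1a1, Fn1, Efemp1 and Robo2 and below them for Dach1, Acpp, Fgfbp1, Opcml, Cdkn1c and Vegfa. The rule for the largest changes required this separation of Adamtsl1, Hpgds, Aldh1a1, Efemp1, Acpp, Fgfbp1 and Opcml.

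With both arms fitted together, the genotype term was called for 380 of 13475 genes (2.82%) at an adjusted p under 0.05. Of these 203 (1.51%) were higher and 177 (1.31%) lower in knockouts, and 1732 genes had an unadjusted p under 0.05. The median log2 fold change of all genes was 0.00. The higher genes moved further than the lower ones at the top of the range, with 15 higher and 4 lower genes past 8-fold, and 81 higher and 52 lower genes past 2-fold. Changes under 1.5-fold made up 45 of the higher and 58 of the lower genes. Among the higher genes, 177 had every knockout above every control of the same arm in both arms, which 2.11% of all tested genes did. Among the lower genes, 156 had every knockout below every control of the same arm, which 2.04% of all tested genes did (4.15% in either direction). Selection by the genotype term in these libraries favours such separation, so these counts are a description and no support. Leaving out 1 library brought the number of lower genes to between 113 (without baseline knockout 3) and 197 (without baseline knockout 1). It was 119 without baseline knockout 2 and 121 without STZ knockout 3, and DESeq2 called 696 genes in all.

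**Figure D2:**
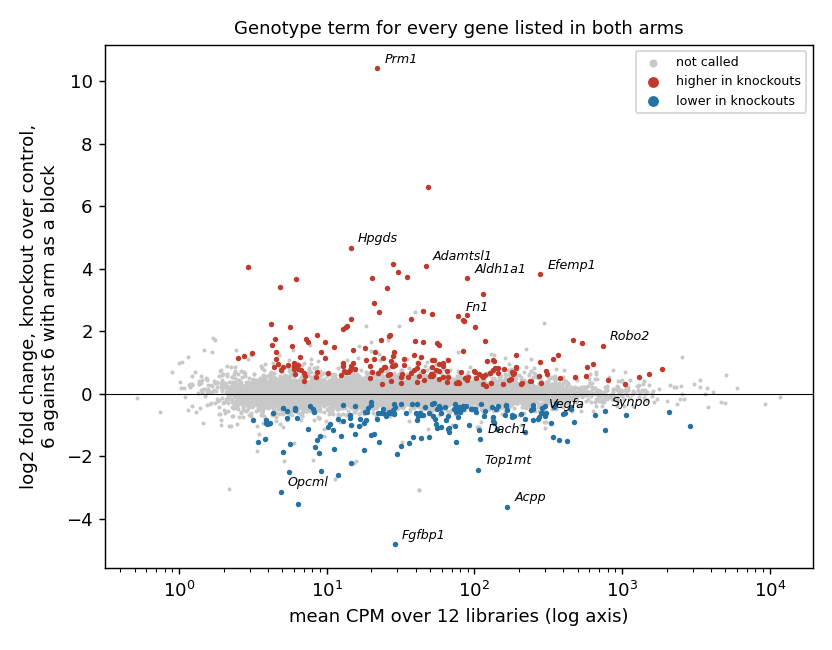
Log2 fold change of knockout over control from the joint fit (vertical axis) against the mean CPM over the 12 libraries (horizontal log axis), 1 point per gene for 13475 genes. Red points are the 203 genes called higher and blue points the 177 called lower. Prm1 stands highest and Fgfbp1 is the lowest labelled gene.

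The largest increases included matrix and adhesion genes, a prostaglandin synthase and a retinoic acid enzyme. The largest increases and decreases were taken only from called genes with every knockout beyond every control of its arm. That separation therefore follows from the rule. Adamtsl1, which encodes a secreted ADAMTS-like matrix protein without a protease domain, stood at 50.2, 48.3 and 56.3 CPM in baseline knockouts against 5.63, 5.28 and 4.68 CPM in baseline controls. After STZ it stood at 116, 119.7 and 141 CPM in knockouts against 4.09, 4.23 and 4.92 CPM in controls, with a joint change of 4.09 in log2 units (SE 0.27, adjusted p = 1.14e-05). The groups were far apart in both arms, and the diabetic knockouts were the highest of the 4 groups. Efemp1 encodes fibulin-3, an elastic-fibre-associated glycoprotein. It had 568, 346 and 296 CPM in baseline knockouts against 34.7, 23.6 and 60.6 CPM in baseline controls, and 759, 638 and 516 CPM in STZ knockouts against 20.4, 41.1 and 36.9 CPM in STZ controls (log2 fold change 3.82, SE 0.32, adjusted p = 5.76e-05). No control came near a knockout. Itga11, the alpha subunit of a collagen-binding integrin, rose by 3.89 (SE 0.34, adjusted p = 6.53e-05) on the log2 scale.

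Hpgds, a prostaglandin D synthase, had 15.3, 14.1 and 23.3 CPM in baseline knockouts against 0.607, 0.694 and 0.621 CPM in baseline controls. After STZ it had 17.5, 50.2 and 46.9 CPM in knockouts against 2.51, 1.06 and 1.12 CPM in controls, and STZ knockout 1 lay well below the other two. Its joint log2 fold change was 4.68 (SE 0.34, adjusted p = 1.49e-05). Aldh1a1, a dehydrogenase that makes retinoic acid from retinaldehyde, had 57.8, 35.96 and 51.7 CPM in baseline knockouts against 6.76, 5.78 and 6.09 CPM in baseline controls, and 194, 351 and 323 CPM in STZ knockouts against 19.6, 13.1 and 8.83 CPM in STZ controls. The gap was wide in both arms, at 3.70 on the log2 scale (SE 0.33, adjusted p = 7.33e-05). Of the remaining genes with the largest increases, Arhgap20, a GTPase-activating protein, rose by 4.14 (adjusted p = 9.11e-05). Ctxn3, a small cortexin-family membrane protein, rose by 4.06 (adjusted p = 0.00510), Parm1, a mucin-like membrane protein, by 3.72 (adjusted p = 0.00233), and Fam26e, a member of the calcium homeostasis modulator family, by 3.70 (adjusted p = 1.14e-05). Ctxn3 was low at baseline, with 0.784, 2.69 and 4.67 CPM in knockouts against 0.390, 0.347 and 0.621 CPM in controls. Its change was 5.24 after STZ and 2.57 at baseline, and only the STZ arm called it alone.

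Prm1, the protamine that packs DNA in the sperm head, changed most. It had 32.4, 35.7 and 38.5 CPM in baseline knockouts, and the baseline controls had 0.0867, 0 and 0.0828 CPM. After STZ it had 60.02, 49.6 and 46.8 CPM in knockouts, against 0.0140, 0.0397 and 0.0146 CPM in controls. Its summed counts were 14151 over the 6 knockouts and 9 over the 6 controls. Scaled for depth this is a ratio of 1547 with an exact 95% binomial interval of 815 to 3384, which covers counting error only. The adjusted p was 1.07e-08. Prm1 was the only measured gene of the spermatid list, whose other members were not among the genes listed in both arms. Whether its reads, or those of the gene given next, come from the native loci was not tested, so these values are levels of reads assigned to the symbols. The gene with the next largest change, C130060K24Rik, was left out by the rule on clone names and is given here after its value was seen. Its summed counts were 35159 over the knockouts and 261 over the controls, for a depth-scaled ratio of 133 (interval 117 to 150).

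The largest decreases included genes of secreted, membrane and transport proteins. Fgfbp1 encodes a secreted carrier that releases fibroblast growth factors from the matrix. It stood at 1.57, 3.79 and 1.27 CPM in baseline knockouts against 61.96, 43.9 and 79.3 CPM in baseline controls. After STZ it stood at 3.04, 1.15 and 0.950 CPM in knockouts against 72.4, 64.3 and 11.7 CPM in controls (joint log2 fold change -4.83, SE 0.51, adjusted p = 0.000311). STZ control 3 was well under the other controls but still above every knockout. Acpp, a transmembrane and secreted acid phosphatase, had 22.5, 14.8 and 12.7 CPM in baseline knockouts against 324, 196 and 267 CPM in baseline controls. After STZ it had 21.3, 21.3 and 65.6 CPM in knockouts against 379.9, 382 and 288 CPM in controls (-3.62, SE 0.33, adjusted p = 9.11e-05). The groups did not overlap within either arm, as the rule for the largest changes required. Opcml, a GPI-anchored adhesion protein of the IgLON family, had 0.697, 1.14 and 0.770 CPM in baseline knockouts against 10.3, 2.66 and 1.33 CPM in baseline controls, and 0.914, 1.13 and 0.991 CPM in STZ knockouts against 17.5, 17.2 and 3.99 CPM in STZ controls (-3.13, adjusted p = 0.00870). The knockouts were uniformly near 1 CPM and the controls were spread.

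Among the other large decreases, Slc26a7, an anion exchanger, fell by 2.60 on the log2 scale (adjusted p = 1.49e-05), Top1mt, the mitochondrial topoisomerase I, by 2.43 (adjusted p = 1.14e-05), and Fam78b by 2.50 (adjusted p = 2.28e-05). Mgat5b, a glycosyltransferase that branches glycans, fell by 2.49 (adjusted p = 0.000333), and Nectin4, a cell adhesion protein, by 2.21 (adjusted p = 0.00202). Cacna2d2, an auxiliary subunit of voltage-gated calcium channels, fell by 1.94 (adjusted p = 0.00211). R3hdml had a log2 fold change of -3.55 (adjusted p = 0.0226) that leaned on 1 mouse. It had 0.958, 0.716 and 0.815 CPM in baseline knockouts against 3.64, 2.47 and 48.7 CPM in baseline controls, and without baseline control 3 the value was -2.42 (adjusted p = 0.00180). The call was lost without STZ control 1, STZ knockout 2, STZ knockout 3 or any 1 of the baseline knockouts (-3.60 to -3.38, adjusted p 0.0508 to 0.0666).

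Promoter sequences are shown for the 2 higher and the 2 lower genes of smallest p among these large changes that have an entry in the RefSeq promoter table (GRCm38.p6). For Prm1 the origin of the reads was not tested, and the native promoter is shown for reference only. Each runs 5′ to 3′ on the gene's own strand, from 250 bases before to 50 bases after the start site, and all 4 genes lie on the minus strand. The windows are chr16:10796774-10797073 for Prm1, chr6:65144681-65144980 for Hpgds, chr5:43981750-43982049 for Fgfbp1 and chr9:104337673-104337972 for Acpp. Capitals mark the motifs searched for on both strands.
Prm1: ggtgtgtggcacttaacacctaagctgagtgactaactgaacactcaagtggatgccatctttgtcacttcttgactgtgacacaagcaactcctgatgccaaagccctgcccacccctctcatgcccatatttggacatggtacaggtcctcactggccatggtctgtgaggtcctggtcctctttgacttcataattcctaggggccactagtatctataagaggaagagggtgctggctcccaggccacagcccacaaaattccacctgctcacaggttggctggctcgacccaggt
Hpgds: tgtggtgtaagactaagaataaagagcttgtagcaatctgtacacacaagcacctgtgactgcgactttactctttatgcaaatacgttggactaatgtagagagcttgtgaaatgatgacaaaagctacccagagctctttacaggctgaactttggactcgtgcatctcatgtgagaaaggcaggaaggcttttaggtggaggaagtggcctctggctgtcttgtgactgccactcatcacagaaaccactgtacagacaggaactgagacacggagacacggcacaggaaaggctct
Fgfbp1: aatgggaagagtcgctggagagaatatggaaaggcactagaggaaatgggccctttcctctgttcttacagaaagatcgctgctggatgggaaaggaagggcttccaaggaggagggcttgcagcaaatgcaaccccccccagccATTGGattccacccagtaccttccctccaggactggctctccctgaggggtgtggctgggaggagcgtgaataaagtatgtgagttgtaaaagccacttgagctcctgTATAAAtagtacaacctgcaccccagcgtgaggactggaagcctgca
Acpp: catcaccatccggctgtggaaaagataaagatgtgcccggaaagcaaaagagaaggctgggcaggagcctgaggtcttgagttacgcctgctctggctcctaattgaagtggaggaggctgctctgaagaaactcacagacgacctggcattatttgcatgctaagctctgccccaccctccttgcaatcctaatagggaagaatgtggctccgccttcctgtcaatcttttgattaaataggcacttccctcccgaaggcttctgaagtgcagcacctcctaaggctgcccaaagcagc
The motifs were the TATA box (TATAAA), the CCAAT box (CCAAT), the GC box (GGGCGG) and the forkhead core (GTAAACA), and no 2 marked matches overlap. Of these 4 windows, that of Fgfbp1 held a TATAAA on the gene's strand, 4 bases past the start site, and a CCAAT on the other strand, whose first base lay at -105, and the remaining windows held none of the 4 motifs. Over the 13235 promoters of tested genes, 7.68% held TATAAA, 37.5% CCAAT, 60.3% GGGCGG and 2.63% GTAAACA. Promoters of genes called higher held CCAAT in 28.9% of 180 and promoters of genes called lower in 37.4% of 174, and TATAAA in 7.22% and 5.17%. The differences between these shares were not tested.

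Most called genes were below the reach of either arm alone. Fitted on its own 6 libraries, the STZ arm called 157 genes (1.17%) and the baseline arm 31 (0.23%). Of the 380 genes called jointly, 25 were called in both arms alone, 98 after STZ only, 6 at baseline only and 251 (1.86% of tested genes) in neither. Pooling also lost calls. Of the 157 genes called after STZ alone, 34 were not called jointly, 32 of them higher, while 0 of the baseline calls were lost. These fits share their libraries with the joint fit, so the counts describe what pooling added or lost and are no independent support. The 251 genes had smaller changes, with a median of 0.67 on the log2 scale over 111 higher genes and 0.63 over 140 lower genes. Genes also called within an arm had medians of 1.33 over 92 higher and 1.48 over 37 lower genes. The median standard error of the log2 fold change was 0.12 in the joint fit, 0.17 after STZ and 0.16 at baseline. All 380 genes had the same sign in both arms, which selection by the joint term favours, so this is no support either.

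**Figure D3:**
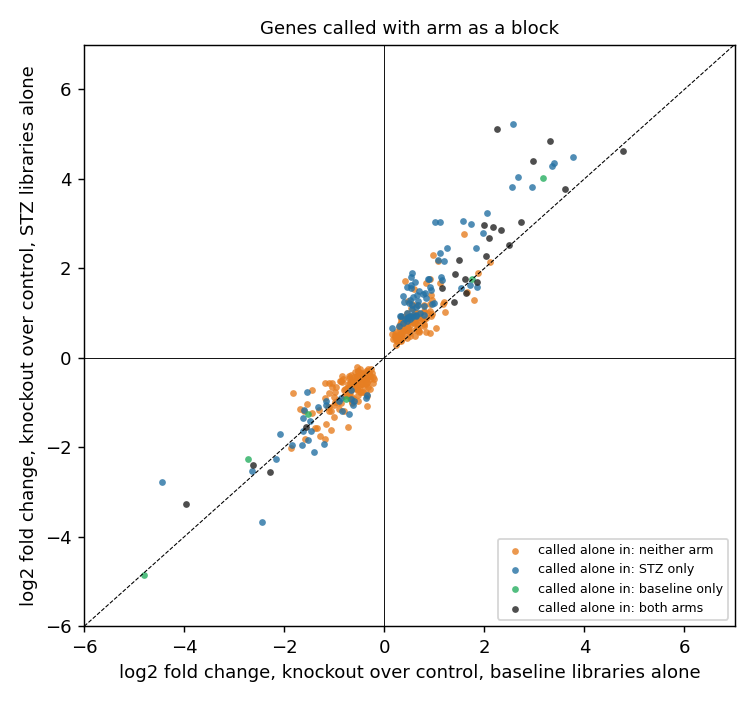
Log2 fold change of knockout over control in the STZ libraries alone (vertical axis) against that in the baseline libraries alone (horizontal axis) for genes called in the joint fit, coloured by the arm that calls them by itself. Prm1 and C130060K24Rik lie outside the axes, and the dashed line marks equal changes. The 251 orange points, called in neither arm alone, cluster near the centre, and 182 of the 203 higher genes had a larger change after STZ.

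Among the genes that were called only with both arms together, the strongest increases by p included membrane organisers and lipid enzymes. Npnt encodes nephronectin, a basement membrane ligand of an integrin, and was among the most abundant of them. It had 1938, 2092 and 1739 CPM in baseline knockouts against 1254, 978 and 1185 CPM in baseline controls, and 2547, 2827 and 3042 CPM in STZ knockouts against 1473, 1781 and 1411 CPM in STZ controls. The knockouts lay above the controls within each arm, by 0.80 on the log2 scale (SE 0.10, adjusted p = 0.000993). Cd82, a tetraspanin of the plasma membrane, rose by 0.57 (adjusted p = 0.000943), Acsl4, an acyl-CoA synthetase that prefers arachidonate, by 0.70 (adjusted p = 0.00133), and Mpp5, the cell polarity scaffold also called Pals1, by 0.58 (adjusted p = 0.00229). Lrrc4, a netrin-G ligand of synapses, rose by 1.87 (adjusted p = 0.00198), Adamts2, the procollagen N-proteinase, by 0.97 (adjusted p = 0.00247), Ppt1, a lysosomal thioesterase, by 0.44 (adjusted p = 0.00275), and Rnft1, a ring finger membrane protein, by 0.67 (adjusted p = 0.00113).

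On the lower side of these genes stood adhesion, septin and trafficking proteins. Ncam1, the neural cell adhesion molecule, had 8.06, 7.49 and 6.84 CPM in baseline knockouts against 14.6, 12.02 and 16.1 CPM in baseline controls. After STZ it had 7.39, 7.33 and 5.77 CPM in knockouts against 11.5, 16.00 and 13.9 CPM in controls, a change of -0.97 in log2 units (SE 0.11, adjusted p = 0.000552). All 6 knockouts lay below all 6 controls. Tbc1d1, a Rab GTPase-activating protein of glucose transporter traffic, had the smallest p of the group and fell by 0.76 (adjusted p = 0.000261). Spon1, the matrix protein F-spondin, fell by 1.41 (adjusted p = 0.00122), Dcdc2a, a doublecortin-domain protein of cilia, by 1.40 (adjusted p = 0.000730), and Sept6, a septin, by 0.80 (adjusted p = 0.000923). Disp1, which releases Hedgehog ligands from cells, fell by 0.73 (adjusted p = 0.00170), and Ocrl, the phosphoinositide phosphatase of Lowe syndrome, by 0.43 (adjusted p = 0.00170).

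Of the podocyte lists, the markers held the most calls, and more of them were lower than higher. Of 32 measured podocyte markers, 3 rose and 9 fell, where 1.51% of all tested genes rose and 1.31% fell, with a median log2 fold change of -0.30 (0.00 over all genes). In the arms fitted alone the marker median was -0.33 at baseline and -0.13 after STZ. Robo2, a SLIT receptor that binds the slit diaphragm complex, had 1301, 911 and 926 CPM in baseline knockouts against 383, 297 and 334 CPM in baseline controls, and 954, 1493 and 996 CPM in STZ knockouts against 402, 457 and 408 CPM in STZ controls (log2 fold change 1.53, adjusted p = 9.11e-05). Every knockout was above every control. The others that rose were Npnt and Mme, the peptidase neprilysin, at 0.84. Cdkn1c, the cell cycle inhibitor p57 of mature podocytes, had 387, 221 and 294 CPM in baseline knockouts against 968, 756 and 919 CPM in baseline controls, and 704, 649 and 732 CPM in STZ knockouts against 1247, 1152 and 1155 CPM in STZ controls (-1.16, adjusted p = 0.00306). Its exons overlap a gene on the other strand, and without strand information their reads cannot be told apart. The remaining markers that fell were Thsd7a, a podocyte membrane protein, at -1.48, Tdrd5 at -1.24, the semaphorin Sema3g at -1.03, the heparan sulfatase Sulf1 at -0.87, the sarcomere-related Nebl at -0.71, Vegfa at -0.63, the peptidase Enpep at -0.58 and the ephrin Efnb1 at -0.30. The call of Efnb1 was lost in each of the 12 fits that left out 1 library (-0.32 to -0.25, adjusted p 0.0531 to 0.141). That of Tdrd5 was lost in 7 of them (adjusted p 0.0596 to 0.0857) and was kept without STZ control 1, STZ knockout 3, baseline control 2, baseline knockout 1 or baseline knockout 2. The call of Enpep was lost without STZ knockout 3 and without baseline control 3 (-0.56 to -0.55, adjusted p 0.0507 to 0.0508).

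Of 19 measured podocyte transcription factors 3 fell and 0 rose, where 1.31% of all tested genes fell and 1.51% rose. The list median was -0.23. Lmx1b, a LIM-homeodomain factor of podocyte identity, fell by 0.63 (adjusted p = 0.00954), and Foxd1, a forkhead factor, by 0.70 (adjusted p = 0.000742). The slit diaphragm list had 0 of 19 higher and 1 lower, the adaptor Nck2 (-0.38, adjusted p = 0.0188), with a median of -0.14. Of 22 actin cytoskeleton genes, Dag1, the dystroglycan that anchors cells to laminin, rose by 0.63, and 4 fell. Those were Synpo, the foot process protein synaptopodin (-0.56, adjusted p = 0.00802), Mtss1, a membrane-bending protein (-0.84, adjusted p = 0.000460), Arhgap24, a Rac GTPase-activating protein (-0.89, adjusted p = 0.000530), and Rhpn1, which encodes rhophilin-1 (-1.40, adjusted p = 0.000569). The median of the actin list was 0.02. The call of Dag1 was lost without any 1 of the 6 STZ libraries and without baseline control 2 (0.55 to 0.63, adjusted p 0.0566 to 0.0802). The call of Nck2 depended on single mice too. It was lost without baseline control 3, without baseline knockout 2 and without baseline knockout 3, where Nck2 stood between -0.35 and -0.34 (adjusted p 0.0587 to 0.0750). Among genes of the DACH and EYA families, their homeodomain partners and their corepressors, 14 were measured, of which Eya4 rose by 1.65 (adjusted p = 4.61e-05) and Dach1 itself fell.

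**Figure D4:**
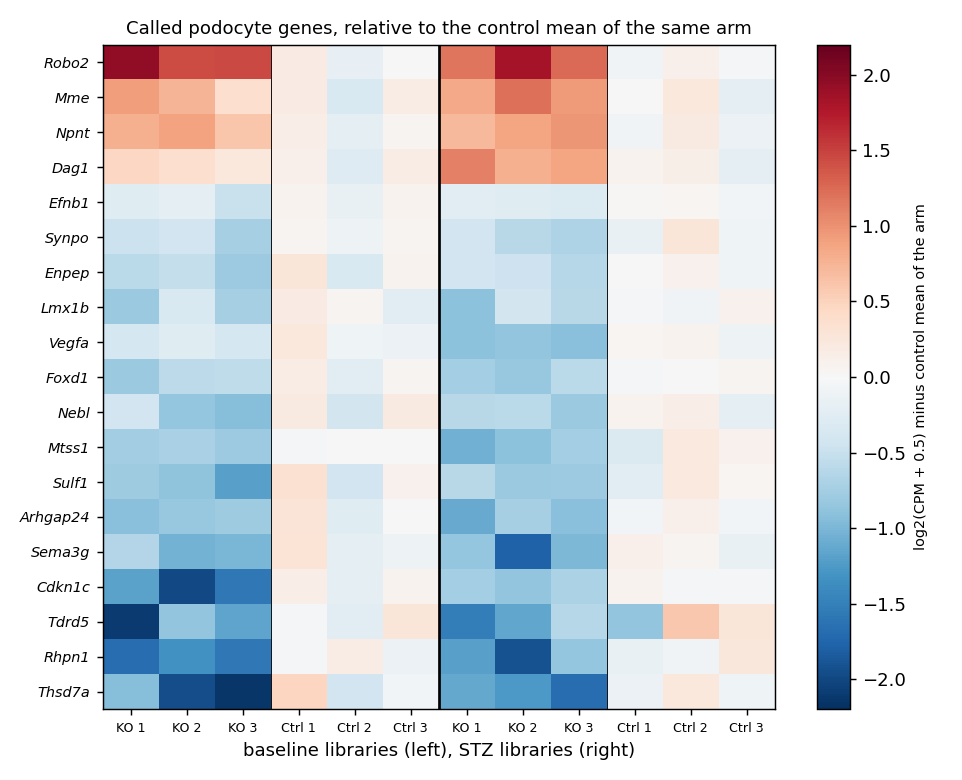
Called genes described from the podocyte marker, transcription factor and actin lists (rows) in each library (columns, baseline on the left and STZ on the right), coloured by log2(CPM + 0.5) minus the mean of the controls of the same arm. Robo2, Mme, Npnt and Dag1 are red in the knockouts of both arms and the other 15 genes are blue, while the controls lie nearer 0, with Tdrd5 in STZ control 1 standing apart from the other controls.

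In the 4 matrix lists every called gene was higher in knockouts, where 1.51% of all tested genes rose and 1.31% fell. The lists were chosen with earlier results of these data known, and Spon1, a matrix protein that fell by 1.41, is in none of them. Medians given for single lists below are from the joint fit, and the arms fitted alone differed. The fibulin list had a median of 0.39 after STZ and -0.01 at baseline, and interstitial matrix 0.47 and -0.10. Basement membrane genes had 0.09 after STZ and -0.01 at baseline, and secreted modular proteins 0.27 and -0.12. All 4 medians were thus below 0 at baseline. In the list of fibulins, elastic fibre and ADAMTS-like genes, 4 of 29 rose and 0 fell (median 0.19), namely Adamtsl1, Efemp1, Adamts2 and Adamtsl2 (0.76, adjusted p = 0.0302). The call of Adamtsl2 was kept only without STZ knockout 1, baseline control 2 or baseline knockout 3, and stood at 0.65 to 0.79 (adjusted p 0.0508 to 0.0774) without any other single library. Among interstitial matrix genes, 1 of 23 rose, a share near the 2.82% of all genes called, with a list median of 0.22. That was Fn1, which encodes fibronectin, at 106, 68.8 and 89.1 CPM in baseline knockouts against 17.9, 23.8 and 24.4 CPM in baseline controls, and 186, 154 and 196 CPM in STZ knockouts against 29.6, 22.2 and 16.9 CPM in STZ controls (2.49, SE 0.22, adjusted p = 7.33e-05). Its knockouts and controls were well separated. Of 23 basement membrane genes, the type IV collagen chain Col4a6 (0.98, adjusted p = 0.000201) and the laminin chain Lamb2 (0.43, adjusted p = 0.0160) rose, with a list median of 0.05. Of 22 secreted modular proteins and proteoglycans, 3 rose and 0 fell, which were Ogn, a small leucine-rich proteoglycan (3.19, adjusted p = 0.000534), and the heparan sulfate carriers Sdc2 (1.62, adjusted p = 0.00198) and Gpc3 (1.73, adjusted p = 0.00293). Itga2, another collagen-binding integrin subunit, rose by 1.62 (adjusted p = 0.00870), so that 2 of 18 integrin subunits rose and 0 fell.

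In the retinoic acid list, 3 of 21 genes rose and 1 fell, where 1.51% of all tested genes rose and 1.31% fell. Besides Aldh1a1 those that rose were Rdh10, which makes retinaldehyde from retinol (1.12, adjusted p = 0.00442), and Tgm2, a transglutaminase induced by retinoic acid (0.65, adjusted p = 0.0100). Rarres1, a retinoic acid receptor responder, fell by 1.39 (adjusted p = 0.000552). In the prostaglandin list, 2 of 24 rose and 1 fell, beside the same shares of all genes. Both lists were chosen with earlier results of these data known. Ptgfr, the receptor for prostaglandin F, had 86.6, 112 and 101 CPM in baseline knockouts against 17.9, 23.2 and 11.97 CPM in baseline controls, and 224, 160.1 and 230.3 CPM in STZ knockouts against 32.1, 35.1 and 39.5 CPM in STZ controls (2.51, adjusted p = 9.03e-06). Its log2 change was 2.53 after STZ and 2.50 at baseline. Ptger4, a receptor for prostaglandin E, fell by 0.80 (adjusted p = 0.0100). Exons of Tgm2 and Ptger4 overlap genes on the other strand, so their reads cannot be told apart from those genes without strand information.

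Neuronal guidance and channel genes changed in both directions, in lists chosen with earlier results known. Of all tested genes 1.51% rose and 1.31% fell. Of 40 axon guidance genes, Robo2 rose and 6 fell, among them the Eph receptors Epha2 (-0.72, adjusted p = 0.0279) and Ephb1 (-1.07, adjusted p = 0.0279) and the semaphorin Sema3g (adjusted p = 0.00606). The others were Ntn4 (-0.49), Sema3e (-0.52) and Efnb1. The median of the list was -0.06. The call of Epha2 was kept only without STZ knockout 1, baseline control 1, baseline control 3 or baseline knockout 1 (otherwise -0.74 to -0.65, adjusted p 0.0563 to 0.0814). Efnb1 was lost throughout, as above. The call of Sema3e was kept only without STZ control 3 or STZ knockout 2 (otherwise -0.56 to -0.46, adjusted p 0.0543 to 0.131), and that of Ntn4 only without STZ control 2, STZ control 3, baseline control 1 or baseline knockout 1 (otherwise -0.50 to -0.45, adjusted p 0.0711 to 0.102). That of Ephb1 was kept only without STZ knockout 1, baseline control 2 or baseline knockout 1 (otherwise -1.08 to -0.94, adjusted p 0.0541 to 0.0762). Of 22 potassium channel genes, Kcnd3 (0.90, adjusted p = 0.00792) and Kcnh1 (0.73, adjusted p = 0.0489) rose, and Kcng2, a modifier of Kv2 channels, fell by 1.90 (adjusted p = 0.000115). The call of Kcnh1 was kept only without baseline control 3 or baseline knockout 1 (otherwise 0.63 to 0.79, adjusted p 0.0553 to 0.112). Gabrb1, a subunit of the GABA-A receptor, had 25.05, 26.7 and 18.6 CPM in baseline knockouts against 4.59, 2.74 and 3.27 CPM in baseline controls, and 56.9, 52.6 and 41.9 CPM in STZ knockouts against 5.65, 6.82 and 6.03 CPM in STZ controls (2.89, adjusted p = 2.24e-06). With Opcml falling, that list of 17 neurotransmitter and synaptic genes had 1 in each direction.

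The VEGF, FGF, BMP and Wnt lists held 1 or 2 calls each, where 2.82% of all genes were called, and counts this small are given as values only. Vegfa, the endothelial growth factor that podocytes secrete, had 199.9, 217 and 199.9 CPM in baseline knockouts against 309.6, 245 and 239 CPM in baseline controls, and 229, 234 and 225 CPM in STZ knockouts against 438, 449.9 and 395 CPM in STZ controls (-0.63, SE 0.11, adjusted p = 0.00811). It was the only call among 13 VEGF and angiopoietin genes. In the FGF list, Fgfbp1 and Spry1, a feedback inhibitor of receptor tyrosine kinases (-0.85, adjusted p = 0.0100), were the 2 of 19 that fell. In the BMP list of 24, Bmp1, a metalloprotease that trims procollagens, rose by 0.74 (adjusted p = 0.00875) and Bmpr1b, a type I BMP receptor, fell by 1.77 (adjusted p = 0.000311). In the Wnt list of 26, the ligand Wnt5b (1.45, adjusted p = 0.00295) and the inhibitor Nkd1 (0.92, adjusted p = 0.0157) rose. None of 17 TGF-beta genes passed. The closest was Tagln, at 2.27 (adjusted p = 0.0963), whose groups overlapped at baseline. After STZ alone it was called at 3.77 (adjusted p = 0.0336), with 733, 339 and 1583 CPM in knockouts against 61.9, 65.9 and 66.8 CPM in controls and no overlap. At baseline it had 204, 91.2 and 157 CPM in knockouts against 64.8, 64.4 and 138 CPM in controls. Spry1 and Tagln also share exon bases with genes on the other strand.

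None of 19 endothelial, 14 mesangial or 11 smooth muscle and renin genes passed, with list medians of -0.08, -0.06 and -0.06. With 2.82% of all genes called, lists of this size with 0 calls are near the background. The smooth muscle and renin list also holds Tagln, which was called after STZ alone, as given above. That list's median was 0.10 after STZ and -0.25 at baseline. Dll4, which endothelium expresses, lies outside these lists, and its call as lower is given below. Of 15 parietal epithelial genes, Ncam1 and Scel, a cornified-envelope protein (-1.33, adjusted p = 0.00263), fell. Scel was also the only 1 of 21 tested genes within 10 Mb of Dach1 to be called. Of 30 cell cycle genes Cdkn1c fell and 0 rose, and none of the 10 genes of the PTIP histone methyltransferase complex or of the 20 immediate early genes passed. Levels of tubule and blood genes varied between libraries. All 28 proximal tubule genes had positive log2 fold changes (median 0.50) and all 17 immune genes negative ones (median -0.29), with 0 calls in either list, nor among 18 later tubule or 8 red blood cell genes. The immune direction rested on STZ control 1, whose library stood highest of the 12 in these genes at 5.55 mean log2 CPM. Without it 10 of the 17 genes were positive, with a median of 0.17. Without baseline knockout 3 the tubule list had 22 positive genes and a median of 0.17, and without STZ control 3 its median was 0.95. The tubule median was -0.07 after STZ and 1.03 at baseline. Summed levels of the 28 tubule genes ran from 3002 to 33315 CPM in baseline knockouts, from 4496 to 8924 CPM in baseline controls, from 4272 to 15271 CPM in STZ knockouts and from 3561 to 16389 CPM in STZ controls. Mean proximal tubule levels ran from 5.88 to 8.99 log2 CPM in single knockout libraries and from 6.33 to 8.32 in single control libraries, with means of 7.39 in knockouts and 7.11 in controls. An exact permutation test within arms (two-sided, 400 arrangements, smallest possible p 0.005) gave p = 0.65 for that difference, and p from 0.135 to 0.98 over the 8 lists of other cell types, all with an adjusted p of 0.98. With the tubule level as a covariate 314 genes were called higher and 255 lower, and Dach1 stood at -1.45.

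**Figure D5:**
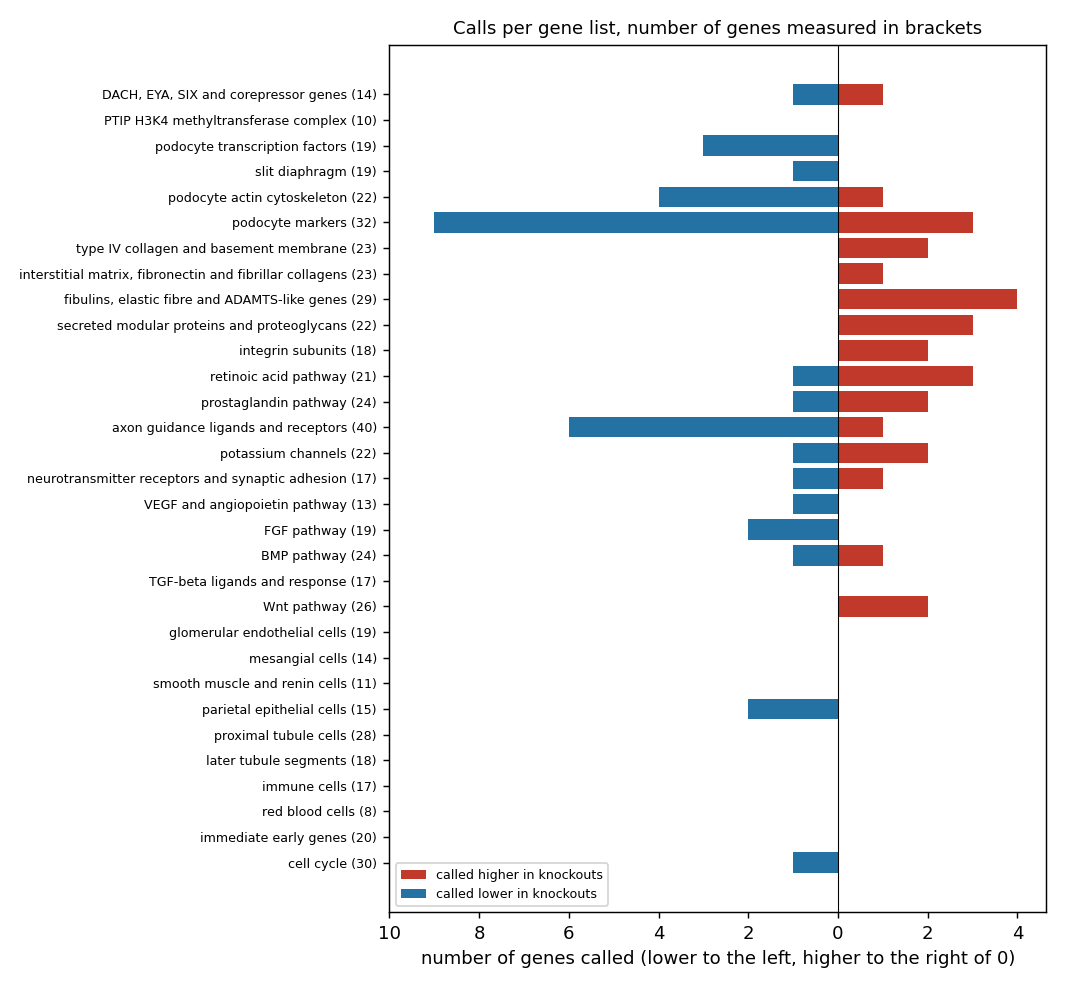
Number of genes called higher (red, to the right of 0) and lower (blue, to the left of 0) in knockouts for each gene list, with the number of genes measured in brackets. The spermatid list, of which Prm1 alone was measured, is left out. Podocyte markers and axon guidance genes hold the most lower calls (9 and 6), and the fibulin and ADAMTS-like list the most calls on the right with 0 on the left.

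The joint fit assumes 1 genotype effect for both arms, and the interaction of genotype and arm tested that. It was called in 1 of 13475 genes (0.00742%), Adamtsl1, whose change was 4.84 after STZ and 3.31 at baseline. No interaction was called in 10 of the 12 fits that left out 1 library, all but those without STZ control 2 (1 gene) and without baseline control 2 (2 genes). DESeq2 called 31. At an unadjusted p under 0.05 the interaction reached 63 of the 380 jointly called genes, or 16.6%, where all tested genes gave 3.68%. In 58 of those 63 the change was larger after STZ. The median log2 change of the higher genes was 1.01 after STZ and 0.65 at baseline, and that of the lower genes 0.70 in size after STZ and 0.69 at baseline. Of the genes named above with a larger change after STZ, Parm1 had 5.11 after STZ and 2.25 at baseline, with an interaction p of 8.58e-06 before adjustment. In the opposite direction Cdkn1c had -0.77 after STZ and -1.55 at baseline (unadjusted p = 0.0117, edgeR). Neither passed the adjustment. The STZ arm was sequenced more deeply, and the part of depth in these differences of size was not tested.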

How the data were processed

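The data are 12 RNA-seq libraries of glomeruli isolated with magnetic beads. The values are estimated counts per gene symbol, deposited by the authors as 1 table per library and not scaled to depth. In each library 10.5% to 11.5% of values end in 0.5. They were rounded to whole numbers, and 18 blank values were taken as 0. Per the submitters' processing notes, BWA and mm10 were used, with no role given. No label read here states the counting tool or its use of strand. Positions came from RefSeq (GRCm38.p6), which held 13449 of the symbols.

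A model of genotype plus arm was fitted in edgeR 4.0.16 (R 4.3.3, with limma 3.58.1), after filterByExpr and TMM scaling, and its genotype term was taken through the quasi-likelihood F test. P-values were adjusted by Benjamini-Hochberg over all genes, with a threshold of 0.05. The standard error is the log2 fold change divided by the root of F. CPM values use TMM scaling over the 12 libraries. Replicate libraries differed beyond sampling noise, and the design text gives them as different mice.

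The members and the 32 gene lists were chosen with earlier results of these data known. Named genes were the 10 largest called changes per direction with at least 1 CPM and no overlap within either arm, the 8 of smallest p per direction called in neither arm alone, and up to 4 called genes per list. Clone names and predicted genes were passed over, and 1 called list member is not reported here. The steps were tested on simulated counts. DESeq2 1.42.0, limma-voom, other filters, scalings, covariates and the omission of each library were the alternatives.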

Additional observations from a re-analysis of the deposited data

Results flagged for a closer look

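Adamtsl1 had the only genotype effect called as different between the arms. Its log2 fold change after STZ exceeded that at baseline by 1.52, with an adjusted p of 0.0441 for the interaction in edgeR's quasi-likelihood test. The joint value of 4.09 therefore averages 4.84 after STZ and 3.31 at baseline. Every knockout lay above every control of its arm in both, as the rule for the largest changes required. In 10 of the 12 fits that left out 1 library no interaction was called.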

How the results depend on the processing

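DESeq2 called 696 genes (375 higher, 321 lower) and 31 interactions. The baseline libraries alone called 31 genes (23 higher, 8 lower) and gave Dach1 at -1.48 without passing, and the STZ libraries alone called 157 (122 higher, 35 lower). A proximal tubule covariate called 314 higher genes, and size factors by RLE gave 2 interactions. Leaving out each library in turn called 268 to 425 genes (147 to 228 higher, 113 to 197 lower) and 0 to 2 interactions, and kept Dach1 between -1.53 and -1.35. The lowest count of lower genes, 113, came without baseline knockout replicate 3. In the same 12 fits 238 genes were called each time (136 higher, 102 lower). Of the genes named above, Nck2, R3hdml, Epha2, Ephb1, Adamtsl2, Kcnh1, Tdrd5, Enpep, Dag1, Ntn4 and Sema3e lost their calls in some of these fits and Efnb1 in all 12. R3hdml was also lost with sex as a covariate (adjusted p = 0.0611) and with limma-voom (adjusted p = 0.117), and Kcnh1 with robust estimation. Efnb1, Ntn4 and Tdrd5 were lost with sex as a covariate too, and Efnb1 and Sema3e with RLE, with 4 group means and with robust estimation. Without the arm term the calls of Rarres1, Sept6, Ppt1, Cdkn1c, Sema3g, Sema3e, Vegfa, Spry1, Adamtsl2, Dag1, Efnb1, Enpep, Ntn4 and Tdrd5 were lost. The uncalled Prkg1 stood at 0.23 jointly and at -0.049 in the baseline libraries alone. The cause of these shifts was not tested. No paired analysis was possible because the labels share no replicate numbers between groups. The numbers used here follow accession order and name different mice. The totals were smallest in the baseline libraries, and the part of depth in the values of low genes was not tested.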

Other observations

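Genes of the lysosome formed a set not described above. The list of 66 lysosomal enzymes, activators and membrane proteins was drawn up after the calls were seen, because several such genes stood among them, and was redrawn once to take out genes that had been put in for being called, so its counts are a description without a test. Of its 66 members 9 rose and 1 fell, beside 2.82% of all genes called, and 58 had positive log2 fold changes, with a median of 0.23. Proximal tubule genes leaned the same way (28 of 28 positive, median 0.50). With the tubule level as a covariate 16 lysosomal genes were called higher and 1 lower, and the median was 0.20. The part of tubule RNA in the lysosomal values was not tested otherwise. When 1 library was left out, 12 were called higher without baseline knockout 1, 8 without baseline control 1 or baseline knockout 3, and 4 to 6 without any other library. Without the arm term 3 were called higher, and DESeq2 called 18. Gaa, the acid alpha-glucosidase, had a log2 fold change of 0.62 (adjusted p = 0.00995, edgeR), Manba, the lysosomal beta-mannosidase, 0.52 (adjusted p = 0.0156), and Tpp1, a tripeptidyl peptidase, 0.39 (adjusted p = 0.0100). Lamp1, an abundant lysosomal membrane protein, had 0.31 (adjusted p = 0.0403). Galc, the galactosylceramidase, fell by 0.66 (adjusted p = 0.00794). Of these 10 calls 8 were made in neither arm alone. In the 12 fits that left out 1 library, the calls of Abca2, Cln3 and Lamp1 were lost in 10 each, that of Naglu in 9 and that of Laptm4b in 5.

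Lists of the Hedgehog and Notch pathways were also drawn up after the calls were seen, so their counts are a description without a test. Of all genes 2.82% were called. Of 15 measured Hedgehog genes, Ptch1, the Hedgehog receptor, fell by 1.02 (adjusted p = 0.000642) beside Disp1, and 0 rose. The Hedgehog median was 0.01, with 8 genes positive and 7 negative. Of 21 measured Notch genes, the ligand Dll1 rose by 0.61 (adjusted p = 0.0210) and the ligand Dll4, which endothelium expresses, fell by 0.75 (adjusted p = 0.0210). The Notch median was -0.07, with 6 genes positive and 15 negative. The call of Dll1 was lost without STZ control 1, STZ control 2 or baseline control 3 (adjusted p 0.0501 to 0.0605), and that of Dll4 in 7 of the 12 fits (adjusted p 0.0513 to 0.0655). Frem1, a basement membrane adhesion protein singled out after its value was seen, rose by 2.39 (adjusted p = 1.14e-05), and its relative Frem3 by 2.13 (adjusted p = 0.00742). Nell2, a secreted glycoprotein, did not pass, at 0.80 (SE 0.27, adjusted p = 0.194), with 1.23 after STZ and 0.37 at baseline.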
